A study of Mus musculus with 12 samples.

Results

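RNA levels in mouse embryonic fibroblasts that lack both Sirt6 and RelA (Sirt6-/-RelA-/-) were compared with those in wild-type fibroblasts on 8 of the 12 Illumina bead arrays of the series, 4 arrays for each genotype. The fibroblasts were cultured from embryos of 13.5 days and sampled before treatment (0 h) and then 1.5, 6 and 24 h after TNF-α (20 ng/mL) was added, so that each genotype had 1 array for each time. The other 4 arrays hold Sirt6-/- fibroblasts over the same times and are given here only beside the values they bear on. The methods state in general that such fibroblasts came from littermate embryos, and the study lists 1 biological replicate for the Sirt6-/-RelA-/- arrays. The wild-type cells carried neither deletion. There was no RelA-/- genotype with intact Sirt6, so a difference described here can come with either deletion or both.

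Genes were taken where the intensity was at least 100 on any of the 8 arrays, and each gene was read from its brightest probe. This left 5942 of 16593 genes. Sirt6 is a nuclear deacetylase of the sirtuin family that acts on histone H3 at promoters. RelA, also called p65, is the NF-κB subunit that carries the main activation domain of the dimer with p50. In resting cells IκB proteins hold that dimer in the cytoplasm, and TNF-α leads to their destruction, after which NF-κB binds κB sites and switches on chemokines, adhesion molecules, metalloproteinases and its own inhibitors.

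Intensities are linear, and values under 16, which lie in the noise, were set to 16 before log2 was taken. A difference is the mean over the 4 times of log2 Sirt6-/-RelA-/- minus log2 wild-type, with its standard error (SE) from limma and a p-value adjusted by the Benjamini-Hochberg method over all 5942 genes. A gene is called higher or lower where the adjusted p was under 0.05. With 1 array for each condition, these p-values measure how steady a difference was over the 4 times and not how it would vary between embryos, and the 2 genotypes cannot be told apart from their 2 cultures.

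The deleted genes were read first. Sirt6 (GRCm38.p6, chr10:81621787-81627792) had wild-type intensities of 39.3, 44.2, 37.6 and 42.0 at 0, 1.5, 6 and 24 h, and 12, -2.85, -1.67 and 2.71 in Sirt6-/-RelA-/- cells. The groups did not overlap, but all values were under 100, the value the methods take for detection, so the gene was not among those tested. Rela (chr19:5637442-5648134) had 674, 1246, 1303 and 1221 in wild-type cells and 172, 178, 187 and 175 in Sirt6-/-RelA-/- cells. It was thus well above the floor in the knockout and lower at every time, by 6.05-fold (log2 difference -2.60, SE 0.16, adjusted p = 1.31e-05).

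Of the 5942 genes, 707 were called (11.9%), 485 higher (8.16%) and 222 lower (3.74%) in Sirt6-/-RelA-/- cells. At an unadjusted p under 0.05 there were 1746. The median difference over all genes was 0.07, and the share of calls that were higher, 68.6%, was 53.8% (351 higher, 302 lower) after each array was centred on its median and 56.6% (309 higher, 237 lower) after quantile normalization. Large falls were about as frequent as large rises: 115 called genes differed by at least 2-fold, 54 higher and 61 lower. Of the 707, 696 had the same direction at all 4 times, against 2206 of all 5942 genes. The call itself selects genes whose difference was steady over these times, so this agreement was largely fixed by it. The 4 and 4 arrays did not overlap for 1230 genes (20.7%), 910 of them higher.

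One array stood apart. The wild-type 0 h array lay outside the range of the 7 other arrays for 3096 of the 5942 genes, against 895 to 1505 genes for each of the others, and its mean correlation with the arrays of its own genotype was 0.965, against 0.981 to 0.991. Without the 0 h arrays 1306 genes were called (790 higher, 516 lower), and all 707 were among them. Without the 1.5 h arrays 149 were called, and without the 6 h arrays 231. Of 91 called genes followed through these fits, all kept their direction.

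The promoters of genes that move together in these arrays can be set side by side. RefSeq windows from 250 bases before to 50 bases after each start (GRCm38.p6) were searched on both strands for the NF-κB consensus, a κB site of 10 bases in which overlapping matches were counted separately. A match was found in 8.46% of all 32851 promoters. Among the 45 TNF-α-induced genes described next, 33 had a promoter in the table, and 18 of these (54.5%) had a match, against 12.5% of the 4913 tested genes that could be matched. Of the genes called lower 19.1% had a match, and of those called higher 11.1%. The 5 promoters that follow are shown because their genes carry the responses described next. Capitals mark the κB matches, and the Mmp13 promoter, which has none, is shown for contrast.
Cxcl1 (chr5:90890995-90891294, plus strand): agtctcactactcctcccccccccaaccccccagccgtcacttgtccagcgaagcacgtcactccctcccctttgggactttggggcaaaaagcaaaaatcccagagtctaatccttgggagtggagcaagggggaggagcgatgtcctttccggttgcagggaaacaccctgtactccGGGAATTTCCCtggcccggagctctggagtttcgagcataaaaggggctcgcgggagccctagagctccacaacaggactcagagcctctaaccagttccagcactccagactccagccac
Cxcl10 (chr5:92348840-92349139, minus strand): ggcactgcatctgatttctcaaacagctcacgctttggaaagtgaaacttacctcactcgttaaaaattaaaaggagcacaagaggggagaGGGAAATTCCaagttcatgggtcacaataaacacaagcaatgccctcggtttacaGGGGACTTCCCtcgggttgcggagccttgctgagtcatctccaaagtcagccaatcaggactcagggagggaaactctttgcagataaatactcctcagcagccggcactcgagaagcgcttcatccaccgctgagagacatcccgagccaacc
Nfkbia (chr12:55492598-55492897, minus strand): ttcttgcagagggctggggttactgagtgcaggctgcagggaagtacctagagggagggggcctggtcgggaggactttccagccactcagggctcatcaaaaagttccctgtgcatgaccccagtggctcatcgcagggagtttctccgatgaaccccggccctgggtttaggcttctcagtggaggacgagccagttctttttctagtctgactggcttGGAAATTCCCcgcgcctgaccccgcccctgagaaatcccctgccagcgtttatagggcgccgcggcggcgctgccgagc
Nfkbie (chr17:45555450-45555749, plus strand): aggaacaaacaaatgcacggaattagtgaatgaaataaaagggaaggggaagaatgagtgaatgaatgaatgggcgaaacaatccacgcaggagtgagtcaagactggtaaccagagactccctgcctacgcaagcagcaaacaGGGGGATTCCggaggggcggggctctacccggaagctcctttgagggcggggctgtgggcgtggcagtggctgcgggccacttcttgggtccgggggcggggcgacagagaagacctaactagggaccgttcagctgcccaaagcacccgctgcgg
Mmp13 (chr9:7272264-7272563, plus strand): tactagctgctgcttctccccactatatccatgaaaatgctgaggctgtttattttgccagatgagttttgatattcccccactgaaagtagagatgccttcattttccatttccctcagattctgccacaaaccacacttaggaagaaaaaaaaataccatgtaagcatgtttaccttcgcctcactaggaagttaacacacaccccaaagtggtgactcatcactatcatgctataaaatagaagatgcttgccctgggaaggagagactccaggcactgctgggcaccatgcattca
In the Cxcl1 promoter 2 overlapping matches began at -71 and -70 from the start, on the plus and the minus strand. The match of Nfkbia began at -29 and that of Nfkbie at -106. A match is a run of letters and not a measured binding site.

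The response to TNF-α was read from 45 genes that rose by at least 1 on the log2 scale by 1.5 h in the Sirt6-/- cells, so that the choice did not use the 8 arrays compared. In wild-type cells the median rise of these genes from 0 to 1.5 h was 1.36, and in Sirt6-/-RelA-/- cells it was 0.26. The rise was smaller in Sirt6-/-RelA-/- cells for 45 of 45, against 3672 of all 5942 genes, and it reached 1 for 37 genes in wild-type and 4 in Sirt6-/-RelA-/- cells. Since the rise uses the wild-type 0 h array, the levels at 1.5 h were also compared directly. There the median difference was -1.24, and 44 of 45 genes were lower in Sirt6-/-RelA-/- cells, against 2772 of all genes. Before TNF-α the median difference was -0.13 and 23 of the 45 were lower, against a median of 0.14 and 2264 lower over all genes. The 45 genes as a group thus already lay somewhat lower at 0 h. They lay further apart at 1.5 h, and were still apart at 6 h (-0.89) and 24 h (-0.87). With a rise of at least 1.5 required in the choice, the 0 h median was -0.31 and 15 of 22 genes were lower. With at least 0.6 it was 0.04, and 45 of 98 were lower. Of the 44 that passed the intensity filter, 25 were called lower and none higher over the 4 times (33 and 0 at an unadjusted p under 0.05). Over all genes 3.74% were called lower and 8.16% higher, and 1746 of 5942 had an unadjusted p under 0.05. Without the 0 h arrays 37 of the 44 were called lower, against 516 of all 5942 genes in that fit. Without the 1.5 h arrays 9 were, against 56 of all genes. The filter used the 8 arrays compared. Genes such as Cxcl1, Ccl5 and Icam1 passed it only through wild-type arrays, which in part fixes these counts of lower genes.

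**Figure D1:**
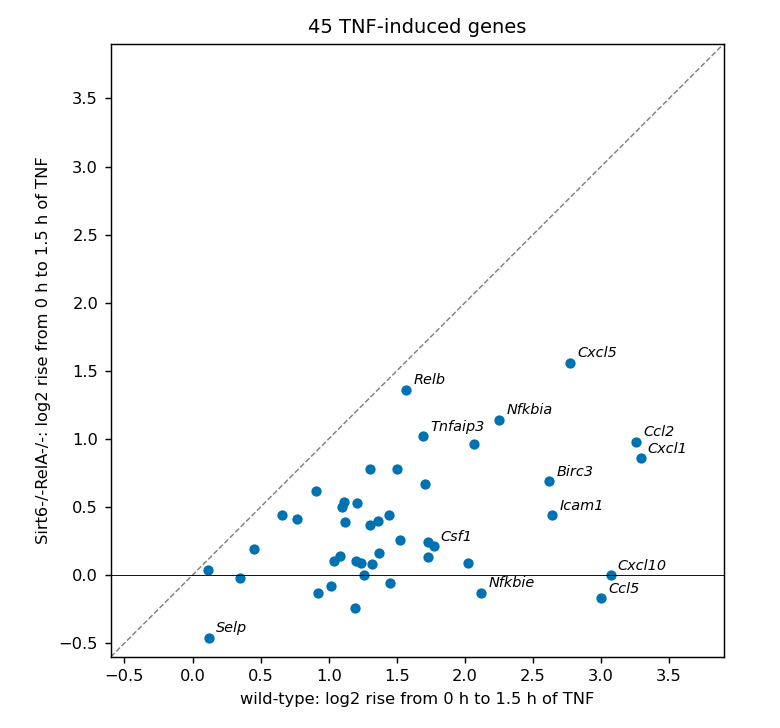
Each point is 1 of 45 TNF-α-induced genes, with the log2 rise in intensity from 0 to 1.5 h in wild-type cells on the horizontal axis and in Sirt6-/-RelA-/- cells on the vertical axis, from 1 array for each condition. All 45 lie under the dashed line of equal rise, and Cxcl10 and Ccl5 lie at or under 0 on the vertical axis.

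The chemokines, secreted proteins that draw leukocytes into tissue, were widely separated. Cxcl1, a neutrophil attractant, had 108, 1054, 796 and 719 in wild-type cells and 45.2, 81.8, 75.5 and 62.7 in Sirt6-/-RelA-/- cells. The Sirt6-/-RelA-/- values at all times lay under the untreated wild-type value, and the difference was -2.96 (SE 0.34, adjusted p = 0.000686). Ccl2, which attracts monocytes, had 428, 4114, 3465 and 3676 in wild-type and 164, 324, 487 and 391 in Sirt6-/-RelA-/- cells (-2.78, SE 0.30, adjusted p = 0.000484). A rise remained for this gene in the knockout, from 164 to 487, and its groups overlapped only through the wild-type 0 h array.

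Ccl5, which attracts T cells and monocytes, had 24.6, 197, 787 and 869 in wild-type cells and 20.8, 18.6, 21.7 and 33.3 in Sirt6-/-RelA-/- cells (-3.38, SE 0.64, adjusted p = 0.0101). At 0 h the genotypes had nearly the same value, close to the floor, and on these 8 arrays values above 33.3 were seen only in wild-type cells. Under the robust prior and without the 1.5 h arrays it was not called. Cxcl5, another neutrophil attractant, had 107, 730, 807 and 858 in wild-type and 29.9, 88.4, 58.5 and 30.0 in Sirt6-/-RelA-/- cells (-3.38, SE 0.37, adjusted p = 0.000528). It was brief in the knockout, back at its starting value by 24 h.

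Cxcl16, a chemokine made as a membrane protein, had 45.4, 115, 209 and 232 in wild-type and 14.3, 23, 29.4 and 35.4 in Sirt6-/-RelA-/- cells and also fell (-2.34, SE 0.20, adjusted p = 0.000116). Ccl7, a monocyte attractant, fell by 1.29, and Ccl9 fell by 1.15. Cxcl10, the T cell attractant, reached 134 at 1.5 h in wild-type cells and was between 3.83 and 26.2 in Sirt6-/-RelA-/- cells. Its difference of -1.25 was not called (adjusted p = 0.0712) with most arrays at or near the floor.

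Not all chemokines fell. Cxcl12, which is made by unstimulated fibroblasts and guides stem cells, had 1770, 1473, 1752 and 2292 in wild-type cells and 3051, 2832, 2451 and 2807 in Sirt6-/-RelA-/- cells, without overlap, and rose by 0.63 (SE 0.13, adjusted p = 0.0185). The rise in Cxcl12 was not called with the mean of its probes or after quantile normalization. Cx3cl1 had a difference of 0.00 and Cxcl14 of -0.31. In all, 7 of the 11 chemokines measured were lower and 1 was higher, against 3.74% and 8.16% of all genes, with a list median of -1.29. Of these 11, 5 reached 100 only on wild-type arrays and so passed the intensity filter only through them, which in part fixes the count and the median. The other 11 chemokines with a probe were under 100 on all 8 arrays. In the same way 3 of the 8 NF-κB subunit and inhibitor genes and 2 of the 12 feedback genes that follow reached 100 only on wild-type arrays.

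**Figure D2:**
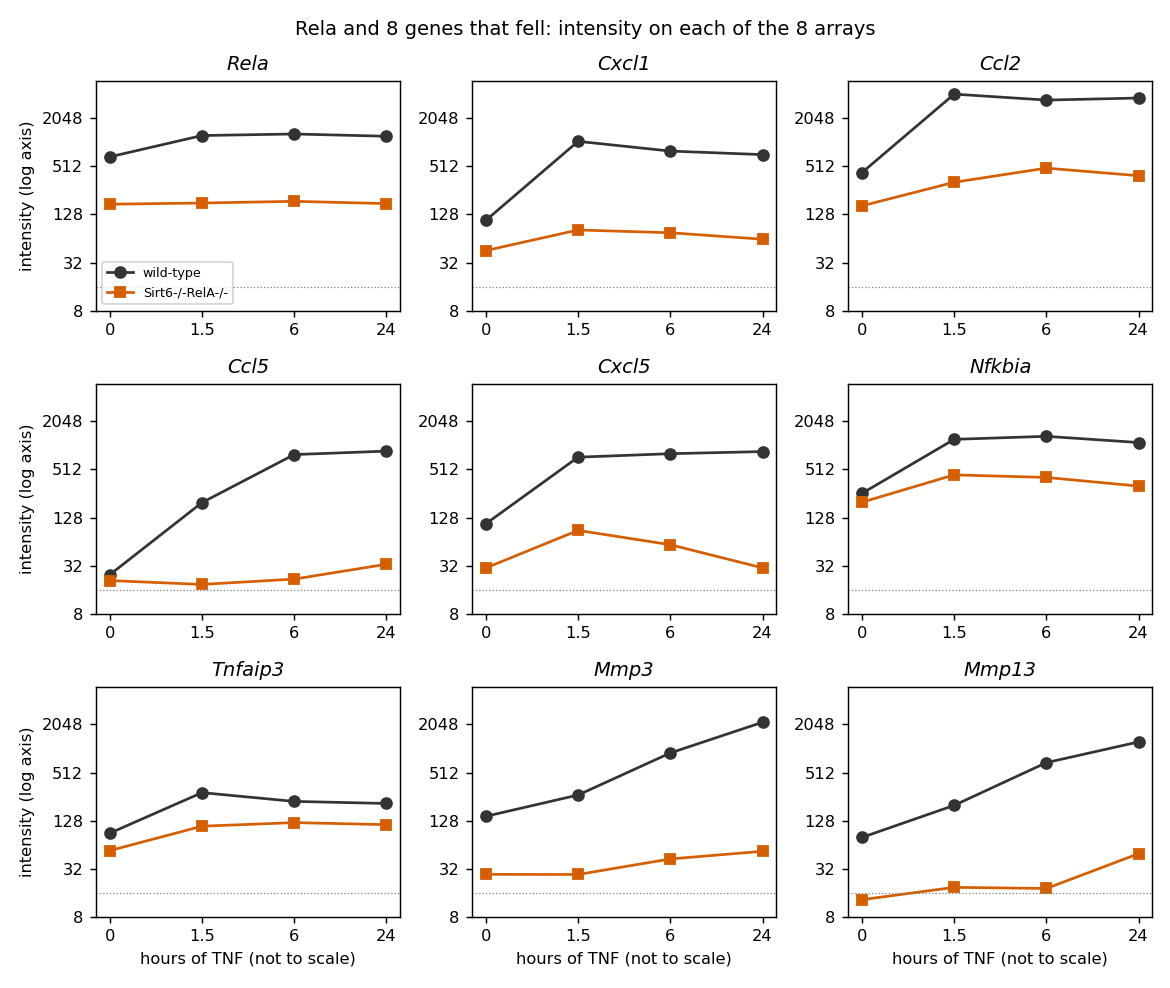
Intensity (log axis) of Rela and 8 genes that fell, on each of the 8 arrays, against hours of TNF-α with evenly spaced times. Circles are wild-type and squares Sirt6-/-RelA-/- cells, with 1 array for each point, and the dotted line marks the floor of 16. In Cxcl1 the wild-type line climbs from 108 to 1054 while the Sirt6-/-RelA-/- line stays between 45.2 and 81.8, and Mmp3 climbs to 2184 in wild-type against 52.9.

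The NF-κB family and its inhibitors came next. Of 8 measured subunits, IκB proteins and IκB kinase genes, 4 were lower and 1 was higher (median -0.94), against 3.74% and 8.16% of all genes. Of the lower ones 1 was Rela itself. Nfkbia, which encodes IκBα, had 257, 1221, 1332 and 1114 in wild-type and 199, 438, 407 and 317 in Sirt6-/-RelA-/- cells (-1.34, SE 0.21, adjusted p = 0.00448). It still rose in the knockout, by 1.14 on the log2 scale at 1.5 h against 2.25 in wild-type cells. Nfkbie, which encodes IκBε, had 43.3, 188, 115 and 116 in wild-type and 32.3, 29.5, 47.7 and 29.3 in Sirt6-/-RelA-/- cells, where no rise was seen at 1.5 h (-1.59, SE 0.29, adjusted p = 0.00896).

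Relb, the subunit of the alternative NF-κB pathway, had 64.5, 192, 181 and 169 in wild-type and 24.8, 63.4, 65.8 and 44.3 in Sirt6-/-RelA-/- cells (-1.59, SE 0.13, adjusted p = 7.38e-05). It was lower from the start, and its rise by 1.5 h was of like size in both, 1.57 and 1.36. Nfkb2, its precursor partner p100, was at 118 and 139 before TNF-α, and at 250 and 153 at 1.5 h in wild-type and Sirt6-/-RelA-/- cells. Its difference over the 4 times, -0.53, was not called (adjusted p = 0.0838), but it was called without the 0 h arrays (adjusted p = 0.000353). Ikbkg, the regulatory subunit of the IκB kinase, rose by 0.60 (adjusted p = 0.0166), and Ikbkb (-0.25) and Nfkbiz (-0.08) were not called.

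Of 12 genes of NF-κB feedback and TNF receptor signaling, 5 were lower and none higher, against 3.74% and 8.16% of all genes. Tnfaip3, the ubiquitin-editing enzyme A20 that shuts off the pathway, had 89.1, 287, 223 and 210 in wild-type and 53.9, 109, 121 and 114 in Sirt6-/-RelA-/- cells (-0.97, SE 0.13, adjusted p = 0.00206). As with Nfkbia, part of the response remained, a rise of 1.02 against 1.69. Birc3, an inhibitor of apoptosis, fell by 1.44, Tnip1, an A20 partner, by 1.00, the death receptor Fas by 0.98 and Tnfaip8 by 0.50. The values of Birc3 at 1.5 h were 156 in wild-type and 42.9 in Sirt6-/-RelA-/- cells, from 25.3 and 26.6 at 0 h. The TNF receptor gene Tnfrsf1a (-0.16) and the deubiquitinase gene Cyld (0.24) were not called.

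Genes that act on leukocytes at the vessel wall and in the acute phase were also among the TNF-α-induced genes, and those of this paragraph were chosen after their values were seen, except Gbp2. Icam1, the ligand of leukocyte integrins, had 42.3, 263, 229 and 148 in wild-type and 48.2, 65.4, 50.7 and 53.6 in Sirt6-/-RelA-/- cells. The genotypes lay close together at 0 h, and the difference over the 4 times was -1.37 (SE 0.32, adjusted p = 0.027). Gbp2, an interferon-induced GTPase, fell by 1.69. Vcam1, another integrin ligand (-0.51), the macrophage growth factor gene Csf1 (-0.28) and the transcription factor gene Irf1 (-0.74) were not called, though at 1.5 h they stood at 1560, 1357 and 1457 in wild-type and 741, 770 and 617 in Sirt6-/-RelA-/- cells. All 3 were called without the 0 h arrays. Of 15 genes for cytokines, adhesion and the acute phase, 8 were lower and 1 was higher, against 3.74% and 8.16% of all genes. Of the 8, 4 are the metalloproteinases described next. Of the 15, 5 reached 100 only on wild-type arrays.

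The metalloproteinases, which degrade matrix, held the lowest pair of differences among all called genes. Mmp13, a collagenase, had 78.9, 199, 682 and 1239 in wild-type cells and 13.1, 18.7, 18.1 and 49.4 in Sirt6-/-RelA-/- cells (-3.90, SE 0.38, adjusted p = 0.000284). Mmp3, stromelysin-1, had 145, 268, 901 and 2184 in wild-type and 27.2, 27.1, 42.4 and 52.9 in Sirt6-/-RelA-/- cells (-3.87, SE 0.38, adjusted p = 0.000277). In wild-type cells both were highest at 24 h, and neither reached the untreated wild-type value in Sirt6-/-RelA-/- cells. On the Sirt6-/- arrays Mmp3 went from 38.9 at 0 h to 2372 at 24 h.

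Mmp10, stromelysin-2, had 90.6, 178, 402 and 424 in wild-type cells and 3.94, 7.61, 54.5 and 31.7 in Sirt6-/-RelA-/- cells (-3.15, SE 0.19, adjusted p = 1.31e-05). Mmp9, the gelatinase chosen after its values were seen, had 162, 274, 707 and 971 in wild-type and 51.2, 53.8, 105 and 185 in Sirt6-/-RelA-/- cells (-2.29, SE 0.17, adjusted p = 4.24e-05). The fall was thus shared by 4 of the 12 measured metalloproteinases and inhibitors, against 3.74% of all genes called lower. Mmp2 and Adamts5 rose by 0.66 and 0.75, and the inhibitor genes Timp1, Timp2 and Timp3, with differences of 0.19, 0.17 and 0.10, were not called. These 5 were chosen after their values were seen. The list median was 0.15, and after quantile normalization it was -0.03, with Mmp2 not called. Of the 12, 4 reached 100 only on wild-type arrays.

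Macrophage markers moved with these genes, and their part in the falls was not tested. Fibroblast cultures from embryos can hold macrophages. Of 16 macrophage and blood cell genes with a probe, 14 had a lower mean in Sirt6-/-RelA-/- cells. Of the 16, 5 were under 16 on all 8 arrays, where a direction lies in the noise. All 7 that were tested were called lower, against 3.74% of all genes. Of these 7, 4 reached 100 only on wild-type arrays, so that their direction was in part fixed by the filter. Summed over the 16, the intensity was 3617 to 5692 on the wild-type arrays and 1299 to 1659 on the Sirt6-/-RelA-/- arrays, and without Lyz1 and Lyz2 it was 1020 to 1308 and 527 to 655. On the Sirt6-/- arrays the sum over the 16 was 707 to 1499. Lyz2 and Lyz1, near-identical lysozyme genes that probes may not separate, fell by 2.21 and 1.97. The receptor genes Cd14 and Adgre1 fell by 1.56 and 1.18, and the complement gene C1qb by 1.42, the last pair being chosen after their values were seen. The defining leukocyte genes Itgam and Ptprc, also chosen after their values were seen, did not exceed 6.71 and 16 on any of the 8 arrays. In bulk RNA, fewer cells of a type and less RNA in each cell cannot be told apart.

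**Figure D3:**
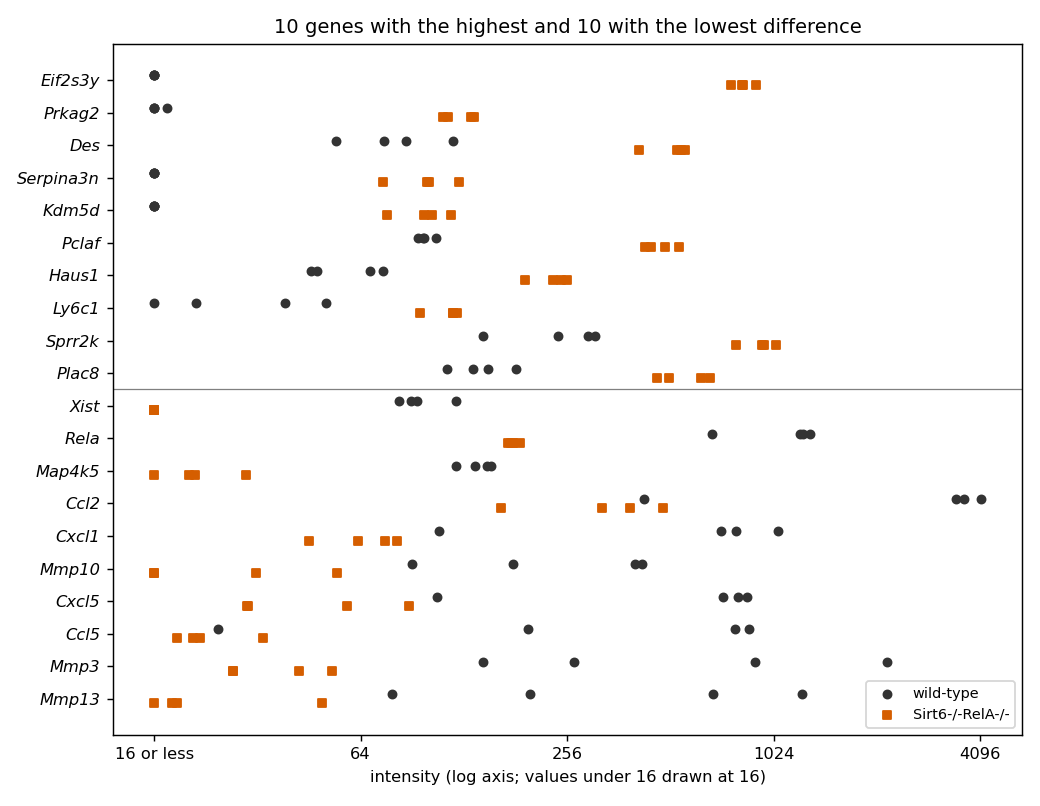
Intensity (log axis, values under 16 drawn at 16) of the 10 genes with the highest and the 10 with the lowest difference among those called with the same direction at all 4 times. Circles are the 4 wild-type arrays and squares the 4 Sirt6-/-RelA-/- arrays. Only Ccl5 and Ccl2 have arrays that overlap, in both through the wild-type 0 h value.

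Sex-linked transcripts separated the groups most sharply. Eif2s3y, a translation factor gene on the Y chromosome, had -4.18, -0.97, -3.45 and -3.64 in wild-type cells and 833, 827, 910 and 768 in Sirt6-/-RelA-/- cells. It was at least 52.1-fold higher (adjusted p = 3.54e-09), taking the wild-type arrays at the floor. Kdm5d, a histone demethylase gene on the Y chromosome, did not exceed 10.6 in wild-type cells and was 76.6 to 117 in Sirt6-/-RelA-/- cells (at least 6.10-fold higher). Xist, the RNA that coats the inactive X chromosome, had 121, 82.6, 89.5 and 93.1 in wild-type and at most 11.2 in Sirt6-/-RelA-/- cells (at least 5.97-fold lower). Kdm6a and Eif2s3x, which escape X inactivation, fell by 0.79 and 0.72. On the Sirt6-/- arrays Eif2s3y did not exceed 2.56 and Xist was 71.3 to 97.2. The sex of the embryos is not given in the sources used here. In these arrays a difference that comes with sex cannot be told apart from one that comes with genotype. Of 185 genes on the X chromosome, 26 were higher and 6 lower (17.3% called), against 11.9% of all genes called. Chromosomes 13 and 9 had like shares, 18.8% and 16.3%.

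The other genes with the highest differences fell into patterns that the Sirt6-/- arrays show. Prkag2, a regulatory subunit of AMP-activated protein kinase, had 10.4, 17.5, 12.2 and 7.13 in wild-type and 111, 134, 137 and 115 in Sirt6-/-RelA-/- cells (2.92, SE 0.11, adjusted p = 1.2e-06). Pclaf, a PCNA-binding protein of DNA replication, had 94.0, 98.0, 97.3 and 106 in wild-type and 430, 492, 448 and 543 in Sirt6-/-RelA-/- cells (2.27, SE 0.11, adjusted p = 4.61e-06). Both were steady over time. On the Sirt6-/- arrays Prkag2 was at 5.42 to 12.7 and Pclaf at 33.8 to 51.1, so these values were high only on the Sirt6-/-RelA-/- arrays. Haus1, a subunit of the spindle augmin complex, and Plac8 had the same pattern, with 193 to 256 and 467 to 665 in Sirt6-/-RelA-/- cells against 45.9 to 74.1 and 114 to 181 in wild-type cells.

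Des, the muscle intermediate filament desmin, had 75, 119, 86.8 and 54.2 in wild-type and 564, 548, 536 and 413 in Sirt6-/-RelA-/- cells (2.67, SE 0.14, adjusted p = 6.46e-06). Serpina3n, a serine protease inhibitor of the acute phase, was under 16 on all wild-type arrays and 74.3 to 124 in Sirt6-/-RelA-/- cells (at least 6.15-fold higher). Both were higher still on the Sirt6-/- arrays, at 923 to 1198 and 251 to 355. Sprr2k, a cornified envelope protein, was 145 to 309 on the wild-type arrays, 752 to 959 on those of Sirt6-/- and 792 to 1041 on those of Sirt6-/-RelA-/- cells. Ly6c1, which has a close paralog, was 13.5 to 50.6 in wild-type and 95.0 to 122 in Sirt6-/-RelA-/- cells.

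Map4k5, a kinase upstream of JNK, had 138, 153, 149 and 121 in wild-type and 29.7, 20.2, 21.1 and 14.2 in Sirt6-/-RelA-/- cells (-2.72, SE 0.14, adjusted p = 6e-06). It was also low on the Sirt6-/- arrays, at 18.7 to 34.7. Its probes disagreed, since the 3 others, none above 49.7, had differences of 0.23, 0.02 and 0.03. The fall of Map4k5 thus belongs to 1 probe.

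Hox genes encode position along the body axis and keep it in cultured fibroblasts. In Sirt6-/-RelA-/- cells 8 of 14 were higher and none lower, against 8.16% and 3.74% of all genes, with a median of 0.75. Of the 14, 2 reached 100 only on Sirt6-/-RelA-/- arrays and 2 only on wild-type arrays. The filter thus in part fixes the directions in this list. Hoxb4 had 94.4, 143, 124 and 142 in wild-type and 271, 282, 260 and 241 in Sirt6-/-RelA-/- cells (1.09, SE 0.14, adjusted p = 0.00136). Hoxb2 had 133, 142, 108 and 126 in wild-type and 272, 296, 212 and 229 in Sirt6-/-RelA-/- cells (0.98, SE 0.11, adjusted p = 0.000542). In both the groups did not overlap. Hoxa7 rose by 0.93, and 5 of the 8 lie in the Hoxb cluster. The posterior genes Hoxd13, Hoxa11 and Hoxd10, chosen after their values were seen, had differences of -0.39, -0.33 and 0.03 and were not called. Hoxd13 was called lower after median centring (-0.46) and with the mean of probes (-0.39), and without the 0 h arrays both Hoxd13 (-0.46) and Hoxa11 (-0.47) were. On the Sirt6-/- arrays Hoxb2 was at 256 to 360.

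The 15 contractile genes of smooth muscle and myofibroblasts had a median of 0.54. After quantile normalization it was 0.13, with 5 higher, against 309 of all 5942 genes. Of the 15, 1 reached 100 only on Sirt6-/-RelA-/- arrays and so passed the intensity filter only through them. Of all 15, 8 rose and none fell, against 8.16% and 3.74% of all genes. Beyond Des these included Mylk, the kinase of the myosin light chain, with 110, 139, 85.2 and 67.3 in wild-type and 279, 284, 271 and 157 in Sirt6-/-RelA-/- cells (1.32, SE 0.13, adjusted p = 0.000286). Actg2, a smooth muscle actin, rose by 0.99. Acta2 and Tagln, chosen after their values were seen, rose by 0.58 each, and neither was called after quantile normalization or median centring. Some skeletal muscle markers moved with them. Of 4 tested, Des, the acetylcholine receptor gene Chrna1 (1.69) and the actin gene Acta1 (1.18) were called, and over the 20 with a probe the summed intensity was 2964 to 4318 on the wild-type arrays, 7045 to 8836 on those of Sirt6-/-RelA-/- and 10827 to 12867 on those of Sirt6-/- cells. Their part in the rise of the contractile genes was not tested, and 8 of the 20 were under 16 on all 8 arrays. Of the 4 tested, 1 reached 100 only on Sirt6-/-RelA-/- arrays. Acta1 held most of the sum. Without it the sums were 348 to 439, 992 to 1041 and 4612 to 5496. With Des, which is also in the contractile list, left out as well, they were 273 to 324, 444 to 628 and 3689 to 4300. For 6 of the 20 the mean was below that of wild-type cells in the double knockout. The fast muscle genes Myl1, Mylpf and Tnnc2, chosen after their values were seen, did not exceed 19.6, 20.0 and 9.55 on any of the 8 arrays.

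**Figure D4:**
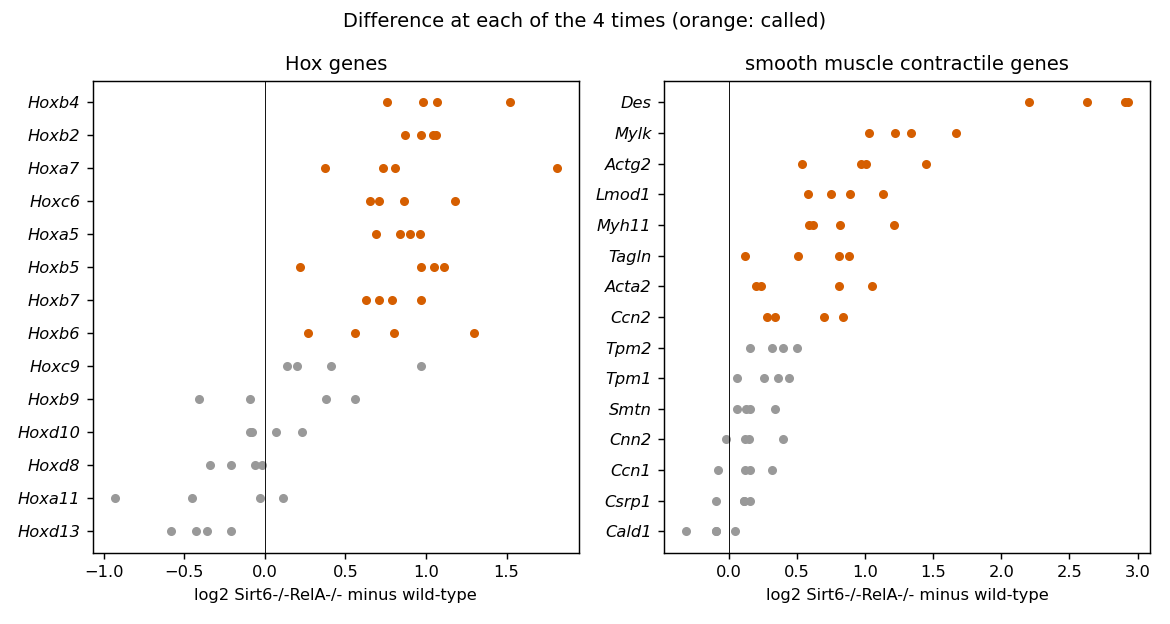
Log2 difference (Sirt6-/-RelA-/- minus wild-type) at each of the 4 times for 14 Hox genes and 15 smooth muscle contractile genes, with 1 point for each time. Called genes are orange. The 8 called Hox genes and the 8 called contractile genes lie right of 0 at all times.

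Matrix genes moved both ways. Of 36 measured, 4 were higher and 6 lower, against 8.16% and 3.74% of all genes. Col1a2, a chain of type I collagen, had 4475, 6556, 5900 and 5343 in wild-type and 2371, 2450, 1918 and 1571 in Sirt6-/-RelA-/- cells (-1.43, SE 0.15, adjusted p = 0.000392). Its partner chain Col1a1, chosen after its values were seen as were Vim and Thy1, differed by -0.27 and was not called. The proteoglycan gene Lum and the collagen gene Col5a3 fell by 1.37 and 1.35, and the basement membrane gene Nid2 and the elastin gene Eln, chosen after their values were seen, rose by 1.16 and 1.04. Of 12 fibroblast markers, 4 were lower and 1 was higher, with a median of -0.26 and 9 of the 12 differences negative. Of the 36 matrix genes 2 reached 100 only on wild-type arrays, and so did 2 of the 12 fibroblast markers. The receptor gene Pdgfra fell by 1.35, and Vim and Thy1 had differences of 0.30 and 0.00, at 9424 to 13419 and 3120 to 5356 over the 8 arrays. Both of these fibroblast markers were thus far above detection in both genotypes.

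Over all genes 8.16% were higher and 3.74% lower, the shares to set beside each list of this paragraph. In the insulin-like growth factor axis and among imprinted growth genes 5 of 17 were higher and 2 lower, with a median of 0.39. After quantile normalization 2 were higher and 3 lower, against 309 and 237 of all 5942 genes. Without the 1.5 h arrays none was called, against 149 of all genes. Ndn, an imprinted growth suppressor, rose by 0.79 and the binding protein genes Igfbp7 and Igfbp5 differed by 0.62 and -0.70, all called. Igfbp7 was not called with the mean of its probes, after quantile normalization, or without the 1.5 h or the 6 h arrays. Of 23 genes of mitosis, 3 were lower and none higher. Plk1, the polo-like kinase that drives mitotic entry, had 401, 589, 584 and 670 in wild-type and 133, 137, 124 and 150 in Sirt6-/-RelA-/- cells (-2.03, SE 0.13, adjusted p = 1.93e-05). The list as a whole had a median of -0.13, so Plk1 stood far from the other mitotic genes. Of 28 genes of DNA replication 1 was higher and 1 lower, no more than the shares over all genes. In the lists of mitosis and of DNA replication, 1 gene each reached 100 only on wild-type arrays. Among the p53 targets that follow, 1 did so only on Sirt6-/-RelA-/- arrays. Of 17 p53 targets 3 were higher and 1 lower: Plk3 (1.00), Pmaip1 (0.88) and Mdm2 (0.71) rose, Fas fell, and Cdkn1a, chosen after its values were seen, had a difference of 0.15.

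Glycolysis, which Sirt6 is known to repress, had 1 of 12 genes higher and none lower, against 8.16% of all genes higher. All 12 differences were above 0, with a median of 0.14 that was -0.03 after quantile normalization. That gene was Pfkp (0.58, adjusted p = 0.0183), the platelet isoform of phosphofructokinase, and it was not called without the 1.5 h or the 6 h arrays. The 24 genes that the study names in its expression classes were chosen by it on these samples, so the list is not independent. Of these 1 reached 100 only on wild-type arrays. Of the 24, 2 were higher and 3 lower, against 8.16% and 3.74% of all genes. Those lower were Ccl2, Relb and Nfkbia, and those higher were Tinagl1 (1.05) and Mdm2. None of 14 genes of cholesterol synthesis and uptake, 10 of the nuclear envelope and 4 sirtuins was called by limma. At an unadjusted p under 0.05 there were 2, 0 and 1 of them.

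**Figure D5:**
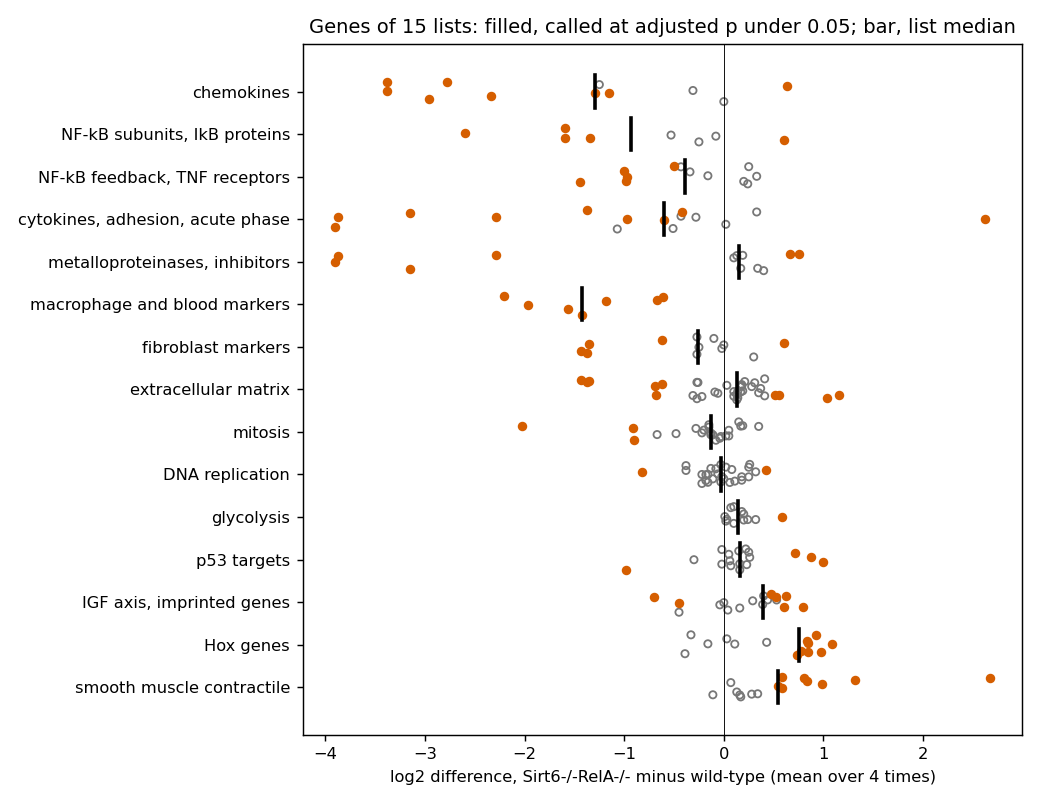
Log2 difference (Sirt6-/-RelA-/- minus wild-type, mean over 4 times) of the genes of 15 lists. Filled points are called at an adjusted p under 0.05, open points are not, and the bar marks the list median. The medians of the macrophage markers (-1.42) and the chemokines (-1.29) lie furthest left, and that of the Hox genes furthest right (0.75).

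The genes around the deleted loci were counted as well. Of the 40 tested genes nearest to Sirt6, 3 were called (7.5%), all lower: Slc41a2, Btbd11 and Dram1 had differences of -0.42, -0.73 and -0.88. Of the 40 nearest to Rela 3 were called (7.5%), all higher: Cd248, B4gat1 and Capn1 had 0.54, 0.58 and 0.50. Both shares lie under the 11.9% of all genes, but each rests on 3 genes. The genes counted reached to 6.76 Mb from Sirt6 and to 0.698 Mb from Rela. The 6 genes named here were chosen after their values were seen.

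Whether the genotype difference depended on TNF-α was asked with an added term, the difference at 1.5, 6 and 24 h minus that at 0 h. It was called for 605 of the 5942 genes (10.2%), 174 positive and 431 negative. After quantile normalization the split was 345 and 364, and with no intensity filter 231 and 234. For 503 of the 605 the wild-type 0 h array lay outside the range of the 7 other arrays, and that array enters the term of every gene. The most negative were Ccl5 (-4.19, adjusted p = 0.00712), Cxcl1 (-2.28, adjusted p = 0.00272) and Mmp13 (-2.13, adjusted p = 0.0304). The most positive, Nptx2 (2.34), Itga6 (2.0) and Fosb (1.74), had their highest value of the 8 arrays on the wild-type 0 h array: Nptx2, a secreted pentraxin, had 373, 114, 82.8 and 69.6 in wild-type cells. Ccl5 and Cxcl1 instead had their highest values on the wild-type arrays after TNF-α.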

How the data were processed

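Total RNA was extracted with TRIzol, labelled as Cy5 cRNA and hybridized to Illumina mouse bead arrays, 1 for each condition. The intensities the authors deposited are linear, and they had subtracted background and scaled the arrays to each other. The submitters' processing notes name GenomeStudio, and its settings are not given in the sources used here. A second table of unnormalized signals was not used, because its column names match no sample labels. The number of arrays limits the precision.

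Of 25697 probes, 23978 carried 1 gene symbol, 1719 none, and none several. The brightest probe stood for a gene (4777 genes had several). Values were floored at 16 and fitted on the log2 scale by limma 3.58.1 (R 4.3.3) with terms for genotype and time, which left 3 residual degrees of freedom beside a prior of 6.46. The added TNF-α term came from a second fit. Fits were tested on simulated data. The members and lists were chosen with earlier results of these data known. Named genes are Sirt6 and Rela, the 10 largest calls each way, the 3 largest calls of each list, any measured gene of the NF-κB, chemokine and study lists, 5 and 5 of the TNF-α-induced genes by wild-type rise and by difference in rise, and the 3 extremes of the TNF-α term each way. All other genes in the text were chosen after their values were seen. Alternatives covered the filter, the floor, the probes, the scaling, the prior, the arrays and each time left out. Locations and promoters are from RefSeq (GRCm38.p6), and figures were drawn with matplotlib 3.10.9.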

Additional observations from a re-analysis of the deposited data

Results flagged for a closer look

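The difference between Sirt6-/-RelA-/- and wild-type cells changed with TNF-α (the difference at 1.5, 6 and 24 h minus that at 0 h, limma, adjusted p under 0.05) for 605 genes, and for 503 of these the wild-type 0 h array was outside the range of the 7 other arrays. Among the NF-κB, chemokine and feedback genes the change was -4.19 for Ccl5, -2.28 for Cxcl1, -2.05 for Cxcl5, -1.86 for Ccl2, -1.12 for Cxcl16 and -1.02 for Ccl7. It was -0.84 for Rela, -1.55 for Nfkbie, -1.30 for Nfkbia, -1.03 for Nfkb2, -2.03 for Birc3, -1.36 for Tnfaip2 and -1.50 for Fas. Among other TNF-α-induced genes and metalloproteinases it was -2.07 for Icam1, -1.36 for Csf1, -1.32 for Irf1, -1.48 for Gbp2, -2.13 for Mmp13, -1.95 for Mmp3 and -0.84 for Mmp9. Of the growth genes, Ccna2 changed by -1.29, Pcna by -1.05, Plk3 by -0.85 and Bcl2l1 by 0.92. The remaining values were -1.17 for Hoxa7, -0.90 for Lmna, 0.86 for Eif2s3x, 1.05 for Cxcl14, 1.74 for Fosb, 2.0 for Itga6 and 2.34 for Nptx2. With 1 array for each condition, no condition held replicates among which a single array could be tested.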

How the results depend on the processing

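By replicate number, no paired analysis was possible because every condition holds 1 array numbered replicate 1. The arrays were instead paired by time, and without that term 833 genes were called, against 707 (485 higher, 222 lower). With no intensity filter 9 of 16593 genes were called (8 higher, 1 lower), 8 of them among the 707, and 2091 had an unadjusted p under 0.05. The cause was not tested. With all 12 arrays 1229 (905 higher) were called. With a filter of at least 200, 146 were lower, and after quantile normalization 309 were higher. Leaving out 1 time gave 149 to 1306 calls, 93 to 790 higher and 56 to 516 lower, with the lowest count without 1.5 h, 231 (136 higher, 95 lower) without 6 h and the highest without 0 h. The TNF-α term was called for 465 to 888 genes in its alternatives, against 605. Its positive calls went from 174 to 345 after quantile normalization, and its negative calls from 431 to 234 with no filter. All other counts of genotype calls over all genes stayed within 1.5 times, and the share of TNF-α-induced genes with a smaller rise was 92.9% to 100%. Of 91 called genes among the 130 looked at, none changed direction in any setting. With no filter 88 of the 91 were not called, after quantile normalization 14, without 1.5 h 46 and without 6 h 34. Of 104 list medians under 4 alternatives (26 lists), 17 moved by over 1 SD of the 4 times, 11 of them after quantile normalization. Directions turned only among genes that were not called: Rps3 (-0.01), Cdkn1a (-0.04), Fbxo4 (-0.01) and Cx3cl1 (-0.03) after quantile normalization, Fbxo4 (-0.00) and Cx3cl1 (-0.06) after median centring, Cx3cl1 with an offset of 50 (-0.00), and with a time left out Fosb (-0.03 to 0.70), Cd40 (-0.04 to 0.46), Itga6 (-0.61 to 0.29), Sirt2 (-0.14 to 0.01), Fbxo4 (-0.10 to 0.15) and Cx3cl1 (-0.12 to 0.08). Arrays give signal over background only, and values under 16 were not ordered. Members called without the 0 h arrays were counted after the data were seen.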
